A study of Mus musculus with 4 samples.

Results

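The 39 genes described here encode the enzymes, carriers and accessory proteins that activate, import and oxidise fatty acids in mouse embryonic stem cells (ESCs). They were taken by gene symbol from the per-gene expression tables of wild type (WT) and *Bmal1* KO ESCs, with symbol cells that merge several genes split at the comma. All 39 were found, in 40 of 19645 features, and all 39 entered the test across 12990 features described below. They comprise 24 mitochondrial genes, 9 peroxisomal genes and 6 acyl-CoA synthetases.

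Long and medium chain fatty acids are first joined to coenzyme A by acyl-CoA synthetases, and the carnitine shuttle then carries the long chains into the mitochondrial matrix. There, each round of β-oxidation removes an acetyl-CoA by dehydrogenation, hydration, a further dehydrogenation and thiolysis, and the electrons of the initial step pass through the electron transfer flavoprotein to the respiratory chain. Peroxisomes shorten very long and branched chains with their own enzymes, in which an oxidase that makes hydrogen peroxide takes the place of the dehydrogenase.

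Total RNA was measured by RNA-seq after removal of ribosomal RNA in 2 libraries of WT ESCs and 2 libraries of *Bmal1* KO ESCs. The KO cells were edited with CRISPR-Cas9 in the gene of BMAL1, the transcription factor that drives the circadian clock together with CLOCK, and were selected as a clonal line. No treatment separated the genotypes, and neither group was differentiated. Because the labels do not say that replicates were separate cultures and the KO is a single line, the p-values below measure only the spread between these samples, and the genotype cannot be told apart from other differences between the lines.

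Values are FPKM, fragments scaled to transcript length and to the mapped fragments of the library, so levels can be compared between genes within a library. The number of reads behind them is unknown, and precision was judged from the replicates, with Pearson r of 0.989 between replicates of either genotype on the log2 scale. The embryonic stem cell markers, 8 of 8, lay between 28.1 and 3045 FPKM, while feeder, endoderm, mesoderm and trophoblast markers summed to between 0.216 and 2.93 FPKM per library. Of the stem cell markers only *Klf4* passed the test described below, at 58.4 and 55.0 FPKM in WT and 41.3 and 40.9 FPKM in KO. *Nanog*, *Sox2*, *Zfp42* and *Tbx3* were also lower in both KO libraries, *Esrrb* was higher, and *Pou5f1* and *Dppa5a* overlapped between genotypes. The 4 neural ectoderm markers summed to 2.94 and 3.43 FPKM in WT and to 12.5 and 14.0 FPKM in KO, and *Ddx3y*, a Y-linked gene, was at 0.235 and 0.403 FPKM in WT and at 16.4 and 20.6 FPKM in KO. Their part in the results below was not tested. The *Bmal1* transcript, listed as *Arntl*, was at 6.05 and 6.29 FPKM in WT and at 5.95 and 5.92 FPKM in KO, and a frameshift need not lower a transcript, so its level does not check the genotype. In bulk RNA, fewer expressing cells and less RNA per cell cannot be told apart.

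Most genes of fatty acid oxidation did not pass the test between genotypes. *Acss1*, a mitochondrial acetyl-CoA synthetase, and *Acox3*, a peroxisomal oxidase of branched chains, were more than 2-fold higher in *Bmal1* KO ESCs. *Acsl5*, a long chain acyl-CoA synthetase, and *Acad9*, a mitochondrial acyl-CoA dehydrogenase that also serves complex I assembly, were lower. These 4 of 39 members, 10.3%, passed the test (limma on log2(FPKM + 0.1), adjusted p under 0.05 over all tested features), against 12.5% of all tested features. By direction, 5.13% of members rose against 6.85% of all features, and 5.13% fell against 5.60%. In either direction the share of members was slightly below that of all features. In 30 members the feature shared neither its symbol cell nor its coordinates with another gene. Of these, 0 rose and 2 fell (6.67%), so both members that rose lie in shared features. Past 2-fold, 2 members rose and 0 fell by limma, beside 2.72% and 1.42% of all features. With a pseudocount of 1 in place of 0.1 the log2 fold changes of *Acss1* and *Acox3* were 0.94 and 0.85, under 2-fold. A permutation test of a single gene was not run, since with 2 libraries against 2 its smallest exact two-sided p is 0.333.

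The median log2 fold change between genotypes, positive where KO is higher, was 0.03 over the 39 members and -0.02 over all 12990 features. In 12 members each KO value exceeded each WT value, in 12 each was lower, and in 15 the genotypes overlapped. These are 30.8% in either direction, beside 27.0% of all features above and 31.7% below. For 35 of 39 members the 95% interval of the change lay within 2-fold in both directions, as it did for 80.7% of all features, and for 28 within 1.5-fold. The estimate itself exceeded 1.5-fold in 4 members (10.3%) and in 15.5% of all features. Summed over members, FPKM came to 843 and 853 in WT and to 834 and 839 in KO.

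**Figure D1:**
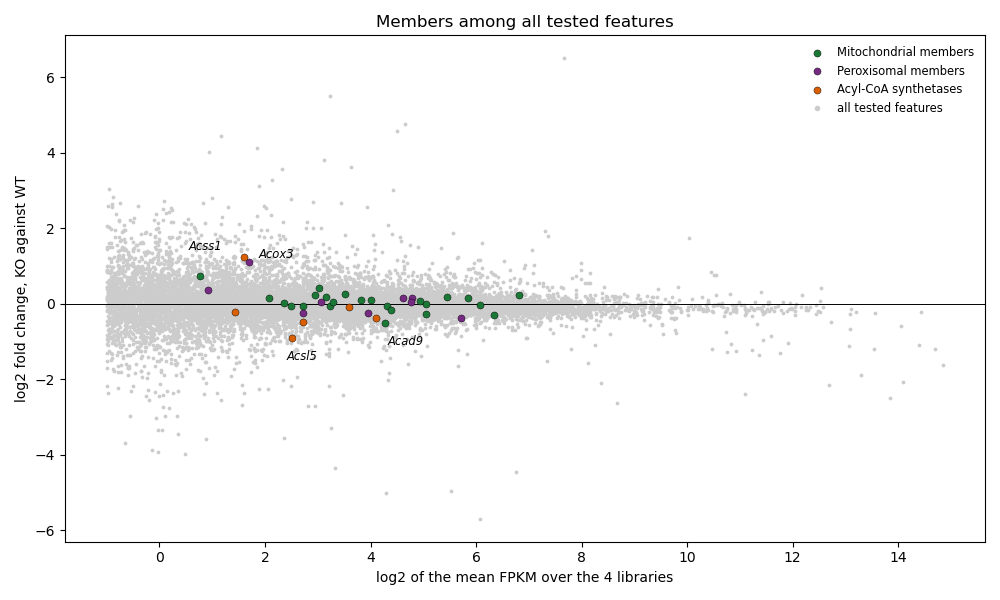
Log2 fold change of KO against WT (on FPKM + 0.1) plotted against the log2 of the mean FPKM over 4 libraries, with 12990 tested features in grey and the 39 members coloured by class. Only *Acss1*, *Acox3*, *Acsl5* and *Acad9*, which are named, passed the test, and the other 35 lie between -0.48 (*Acsl4*) and 0.72 (*Crat*).

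**Figure D2:**
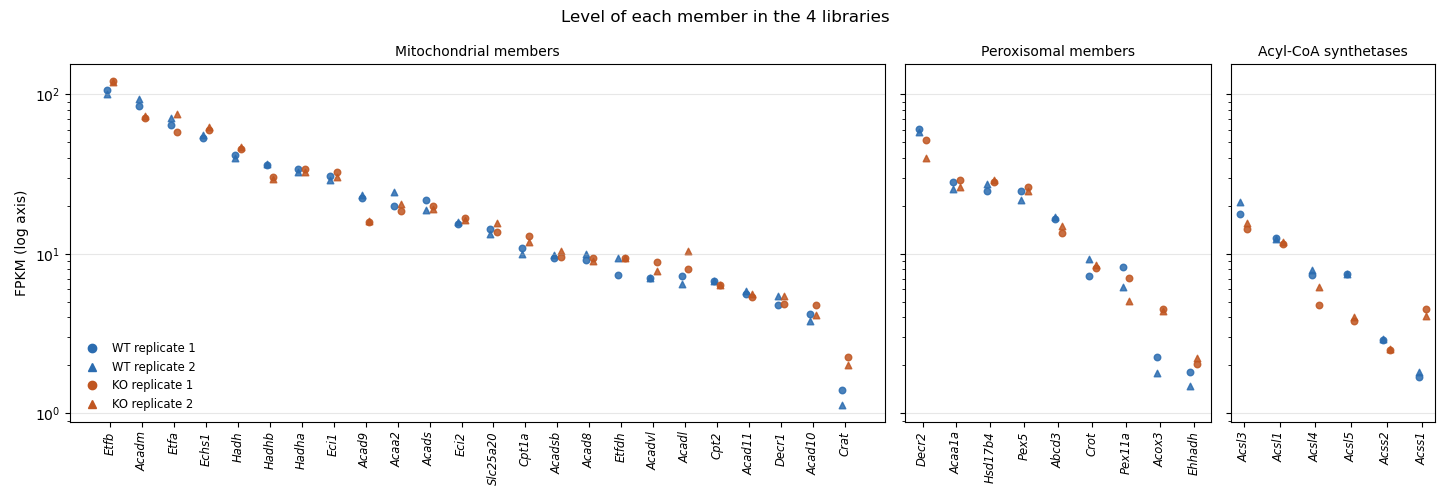
FPKM (log axis) of each member in the 2 WT (blue) and 2 KO (orange) libraries, with replicate 1 as circles and replicate 2 as triangles, in 3 panels by class and ordered by the WT mean. Levels span from *Crat*, at 1.12 to 2.26 FPKM, to *Etfb*, at 100 to 122 FPKM, and in most genes the symbols of the genotypes lie close together.

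The promoters of *Acss1*, *Acox3* and *Acsl5* are shown because these were the members with the largest changes, and each window runs from 250 bases before to 50 bases after the RefSeq transcription start (GRCm38.p6). Capitals mark the CCAAT box and the GC box GGGCGG, searched on both strands. The *Acss1* window is chr2:150668191-150668490 on the minus strand, the *Acox3* window is chr5:35582784-35583083 on the plus strand, and the *Acsl5* window is chr19:55253119-55253418 on the plus strand.
Acss1: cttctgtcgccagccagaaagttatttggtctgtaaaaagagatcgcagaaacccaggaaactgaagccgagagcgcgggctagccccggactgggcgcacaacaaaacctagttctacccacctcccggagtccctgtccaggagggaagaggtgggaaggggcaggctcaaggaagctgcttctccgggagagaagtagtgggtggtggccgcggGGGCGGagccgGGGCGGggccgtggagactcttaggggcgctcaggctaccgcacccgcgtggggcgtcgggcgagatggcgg
Acox3: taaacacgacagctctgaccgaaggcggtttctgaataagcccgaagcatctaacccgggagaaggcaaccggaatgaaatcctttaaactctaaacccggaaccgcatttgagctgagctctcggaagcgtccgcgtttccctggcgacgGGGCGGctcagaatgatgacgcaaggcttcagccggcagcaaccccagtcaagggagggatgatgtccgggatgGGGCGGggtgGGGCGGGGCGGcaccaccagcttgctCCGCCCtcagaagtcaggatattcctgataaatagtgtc
Acsl5: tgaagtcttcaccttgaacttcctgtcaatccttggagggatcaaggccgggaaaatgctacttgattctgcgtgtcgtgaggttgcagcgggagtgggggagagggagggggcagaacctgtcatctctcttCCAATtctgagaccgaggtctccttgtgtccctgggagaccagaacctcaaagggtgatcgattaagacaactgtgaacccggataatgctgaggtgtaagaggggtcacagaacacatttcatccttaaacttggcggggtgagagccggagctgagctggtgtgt

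The *Acss1* window held 2 GC boxes and the *Acox3* window 5, some of which overlap, and neither held a CCAAT box. The *Acsl5* window held 1 CCAAT box and no GC box, and it had 9 CpG dinucleotides where those of *Acss1* and *Acox3* had 23 and 22. RefSeq windows were at hand for 34 members, 38 windows in all, because some genes have several starts. *Acad9*, *Crat*, *Acaa2*, *Decr1* and *Hsd17b4* had none. A GC box was present in 29 of these 38 windows (76.3%) and in 35.6% of all 32817 windows, and a CCAAT box in 17 of 38 (44.7%) and in 37.4% of all windows. The E-box CACGTG, the letters to which CLOCK and BMAL1 bind, occurred in 0 of 38 windows and in 7.15% of all windows, and its variant CACGTT in 0 of 38 and in 4.69%. The TATA box TATAAA was in 0 of 38 windows and in 13.6% of all. The peroxisome proliferator response element, bound by the fatty acid sensing PPAR receptors, and TCAAGGTCA, a motif of the estrogen related receptors, were also in 0 of 38 windows, beside 0.0396% and 0.424% of all windows. A match in these 300 bases is a description of letters, and the lack of one says nothing of binding elsewhere.

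Acyl-CoA synthetases activate fatty acids by joining them to coenzyme A. *Acss1*, whose product makes acetyl-CoA from acetate in the mitochondrial matrix, was at 1.69 and 1.82 FPKM in WT and at 4.52 and 4.08 FPKM in KO. The gap between the genotypes was several times that between replicates. The fold change was 2.37 (95% interval 1.87 to 3.02, log2 1.25, SE 0.14, adjusted p = 0.0073 by limma). *Acss1* (ENSMUSG00000027452.11) lies on chromosome 2 at 150618105 to 150668500, minus strand, and its feature has the same coordinates as the noncoding gene *E130215H24Rik*, which overlaps it on the other strand and was listed at 0 to 0.058 FPKM.

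*Acss2*, which makes acetyl-CoA from acetate in the cytosol and nucleus, was at 2.91 and 2.92 FPKM in WT and at 2.48 and 2.52 FPKM in KO. Its replicates lay close together and the KO values were below the WT values, with a log2 fold change of -0.21 (SE 0.13, adjusted p = 0.342). Thus *Acss2* was the more abundant of the acetate activating enzymes in WT and *Acss1* in KO. The ratio of *Acss1* to *Acss2* within a library was 0.581 and 0.623 in WT and 1.82 and 1.62 in KO.

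The 4 long chain synthetases were each lower in both KO libraries than in both WT libraries, and *Acsl5* alone passed the test. *Acsl5*, whose product sits on mitochondria and endoplasmic reticulum, was at 7.44 and 7.44 FPKM in WT and at 3.82 and 4.05 FPKM in KO. The KO level was 0.535 of the WT level (95% interval 0.446 to 0.641, log2 -0.90, SE 0.11, adjusted p = 0.0078 by limma). *Acsl5* (ENSMUSG00000024981.6) lies on chromosome 19 at 55251938 to 55297720, plus strand, and 8.31% of its exonic bases overlap *Zdhhc6* on the other strand.

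*Acsl4*, which prefers arachidonic acid, was at 7.37 and 7.93 FPKM in WT and at 4.76 and 6.21 FPKM in KO (log2 -0.48, adjusted p = 0.0967). Its gene lies on chromosome X, and a part of the sex chromosomes in its change was not tested. *Acsl3*, an enzyme of lipid droplets whose row is merged with *Utp14b* and therefore uncertain, was at 17.9 and 21.2 FPKM in WT and at 14.3 and 15.5 FPKM in KO (log2 -0.39, adjusted p = 0.0836). *Acsl1*, a major synthetase of fat and heart, was at 12.5 and 12.4 FPKM in WT and at 11.5 and 12.0 FPKM in KO (log2 -0.08, adjusted p = 0.563). The genotypes did not overlap in any of these 3 genes, yet none passed the test.

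Over the 6 synthetases the median log2 fold change was -0.30. Past the test, 1 rose and 1 fell (16.7% each), beside 6.85% and 5.60% of all features. In 5 of 6 each KO value lay below each WT value, beside 31.7% of all features. With only 6 genes these shares are a description only. Summed FPKM of the 4 long chain enzymes was 45.2 and 49.0 in WT and 34.4 and 37.7 in KO, a KO level of 0.766 of WT. Relative to *Acsl1*, the *Acsl5* level was 0.594 and 0.602 in WT and 0.332 and 0.339 in KO, and the *Acsl4* level was 0.588 and 0.641 in WT and 0.413 and 0.520 in KO. The order of levels in WT was *Acsl3*, *Acsl1*, *Acsl4*, *Acsl5*, *Acss2* and *Acss1*, where *Acsl4* and *Acsl5* did not differ beyond the spread of their replicates. In KO, *Acss1*, *Acsl5* and *Acsl4* lay between 3.82 and 6.21 FPKM, and *Acss1* and *Acsl5* differed by about the spread of their replicates.

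**Figure D3:**
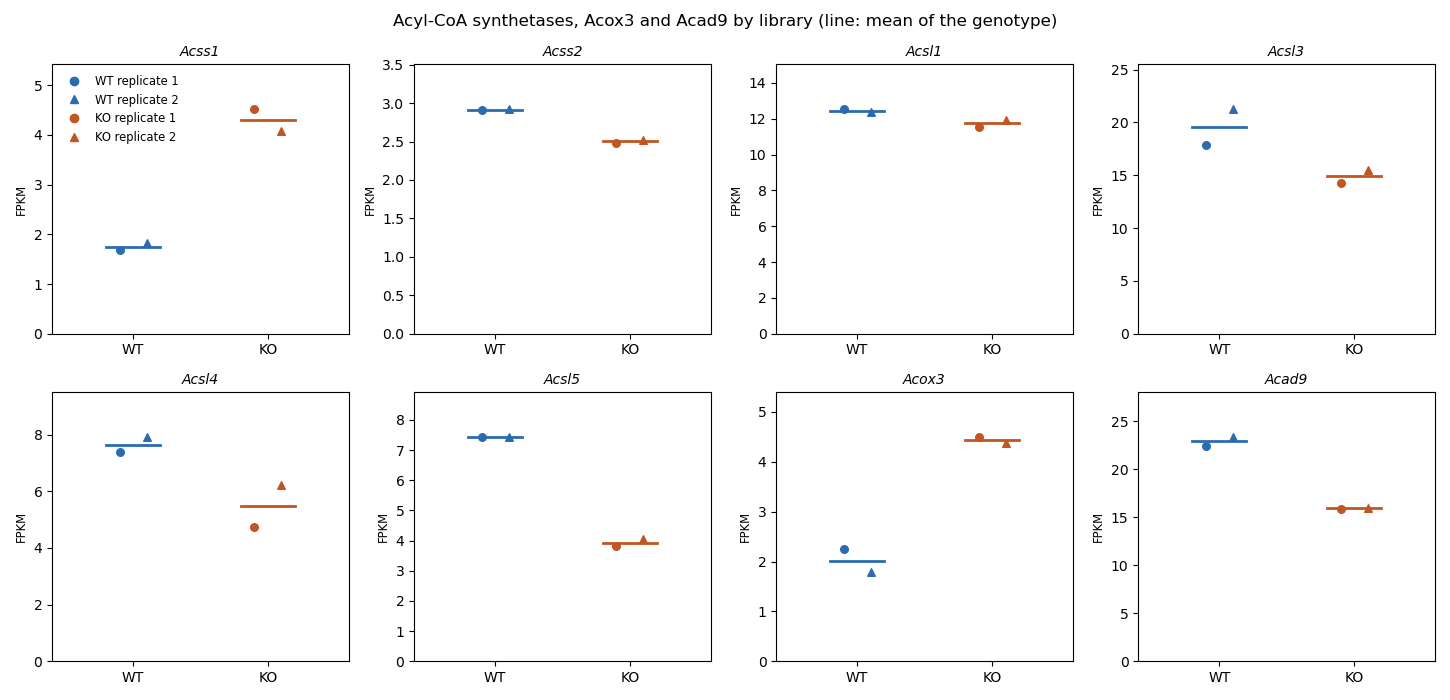
FPKM (linear axis from 0) in the WT (blue) and KO (orange) libraries for the 6 acyl-CoA synthetases, *Acox3* and *Acad9*, with replicate 1 as circles, replicate 2 as triangles and the mean as a line. *Acss1* and *Acox3* lie between 4.08 and 4.52 FPKM in the KO libraries and between 1.69 and 2.26 FPKM in the WT libraries, while *Acsl5* and *Acad9* are lower in KO. *Acss2*, *Acsl1*, *Acsl3* and *Acsl4* did not pass the test.

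In peroxisomes, *Acox3* encodes an oxidase that starts the breakdown of branched chain acyl-CoA. It was at 2.26 and 1.78 FPKM in WT and at 4.50 and 4.38 FPKM in KO, so the KO replicates lay closer together than those of WT and well above them. The fold change was 2.16 (95% interval 1.64 to 2.83, log2 1.11, SE 0.16, adjusted p = 0.0128 by limma). A second *Acox3* feature of lower level was at 0.700 and 0.379 FPKM in WT and at 1.42 and 1.41 FPKM in KO (log2 1.29, adjusted p = 0.0492). *Acox3* (ENSMUSG00000029098.17) lies on chromosome 5 at 35583040 to 35615352, plus strand, and both features share coordinates with its antisense gene *4931431C16Rik*, which overlaps 6.08% of its exonic bases. The library strand is not stated, so reads of the pair cannot be separated.

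The other peroxisomal enzymes did not pass the test. *Ehhadh*, the bifunctional enzyme of straight chains, was at 1.82 and 1.49 FPKM in WT and at 2.04 and 2.22 FPKM in KO (log2 0.35, SE 0.18, adjusted p = 0.243). *Hsd17b4*, its counterpart for branched chains, was at 24.7 and 27.5 FPKM in WT and at 28.4 and 29.2 FPKM in KO (log2 0.14, SE 0.09, adjusted p = 0.335). In both, the genotypes were separated by less than 1.5-fold. *Decr2*, a reductase for unsaturated chains whose row is merged with *Nme4*, was at 60.8 and 58.0 FPKM in WT and at 52.1 and 39.8 FPKM in KO (log2 -0.38, adjusted p = 0.127). The value of that merged row is therefore uncertain.

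*Acaa1a*, the thiolase, ranged from 25.4 to 29.2 FPKM over the 4 libraries and *Crot*, which hands shortened chains to carnitine, from 7.22 to 9.35 FPKM. Both overlapped between genotypes. Among the genes of import and membrane, *Abcd3*, a transporter of branched and very long chain acyl-CoA, was at 16.7 and 17.0 FPKM in WT and at 13.4 and 15.0 FPKM in KO (log2 -0.24, adjusted p = 0.150). *Pex5*, the receptor for matrix proteins, ranged from 21.7 to 26.3 FPKM and *Pex11a*, which promotes peroxisome division, from 5.04 to 8.25 FPKM, and both overlapped between genotypes. Over the 9 peroxisomal members 1 passed the test (11.1%, beside 12.5% of all features), the median log2 fold change was 0.05, and summed FPKM was 175 and 168 in WT and 171 and 155 in KO. The largest single part of each sum was the uncertain row of *Decr2* and *Nme4*. It held 60.8 and 58.0 FPKM in WT and 52.1 and 39.8 FPKM in KO, so the sums are uncertain too.

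**Figure D4:**
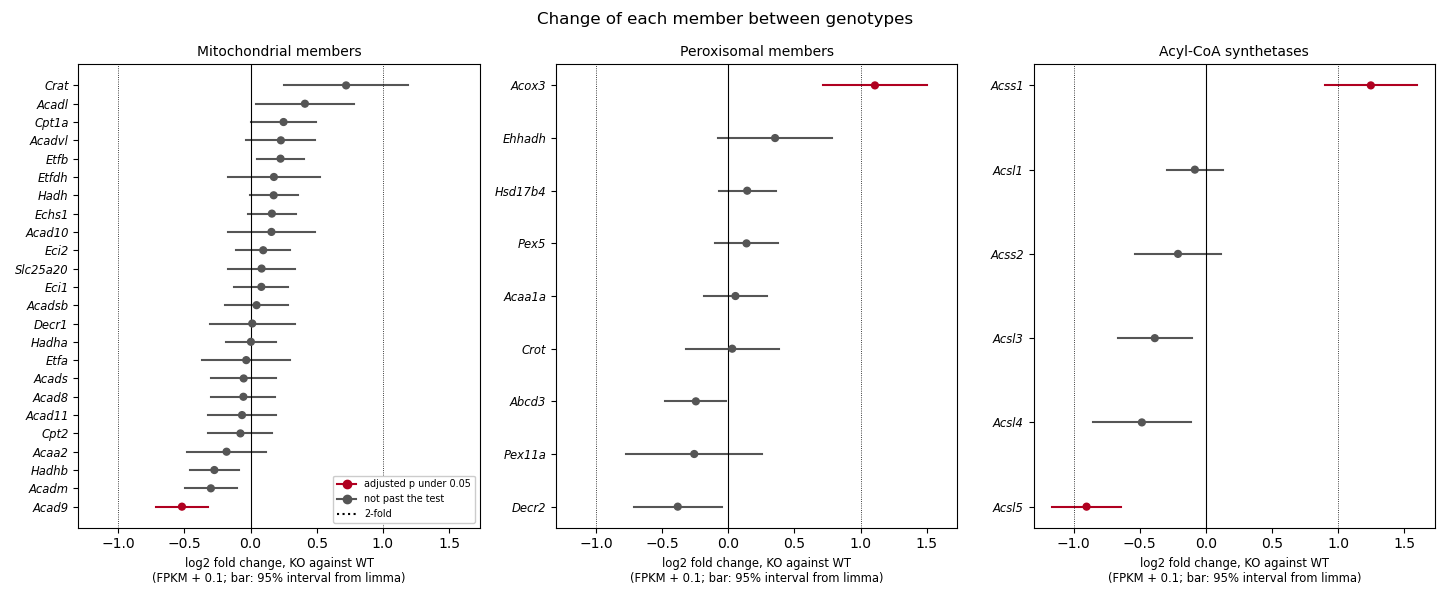
Log2 fold change of KO against WT for each member (on FPKM + 0.1, positive where KO is higher), with 95% intervals from limma, in 3 panels by class. Red marks the 4 members past the test, grey the other 35, and dotted lines mark a change of 2-fold.

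The carnitine shuttle carries long chains into mitochondria. *Cpt1a*, its rate limiting acyltransferase on the outer membrane, was at 11.0 and 9.98 FPKM in WT and at 13.0 and 12.0 FPKM in KO (log2 0.25, SE 0.10, adjusted p = 0.167). *Cpt2*, which reforms acyl-CoA inside, was at 6.74 and 6.73 FPKM in WT and at 6.36 and 6.41 FPKM in KO (log2 -0.08, SE 0.10, adjusted p = 0.644). *Slc25a20*, the carnitine carrier between them, was at 14.3 and 13.3 FPKM in WT and at 13.7 and 15.5 FPKM in KO (log2 0.08, SE 0.10, adjusted p = 0.631). The WT and KO ranges overlapped for *Slc25a20* and were separated by small margins for *Cpt1a* and *Cpt2*. The ratio of *Cpt1a* to *Cpt2* was 1.63 and 1.48 in WT and 2.04 and 1.87 in KO.

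*Crat*, which exchanges acetyl groups between coenzyme A and carnitine, was at 1.40 and 1.12 FPKM in WT and at 2.26 and 2.00 FPKM in KO. Its fold change of 1.65 (95% interval 1.19 to 2.28, log2 0.72, SE 0.19) did not pass the test (adjusted p = 0.0649), and it was the only mitochondrial member that differed by more than 1.5-fold. *Crat* has the same coordinates as *Dolpp1* and *Ppp2r4* in the files, so its value is uncertain.

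The acyl-CoA dehydrogenases divide the chains by length. *Acad9* was at 22.4 and 23.4 FPKM in WT and at 15.9 and 16.0 FPKM in KO, with replicates within 1 FPKM of each other. The KO level was 0.698 of the WT level (95% interval 0.609 to 0.800, log2 -0.52, SE 0.08, adjusted p = 0.0155 by limma). *Acad9* (ENSMUSG00000027710.14) lies on chromosome 3 at 36065979 to 36092853, plus strand, and 6.82% of its exonic bases overlap the gene *Gm43079*.

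*Acadm*, for medium chains and the most abundant dehydrogenase in every library, was at 84.5 and 93.3 FPKM in WT and at 71.2 and 73.0 FPKM in KO (log2 -0.30, SE 0.08, adjusted p = 0.0675). Both KO libraries lay below both WT libraries without passing the test. *Acadvl*, for very long chains, was at 7.09 and 7.11 FPKM in WT and at 8.84 and 7.86 FPKM in KO (log2 0.23, SE 0.11, adjusted p = 0.214), and 42.9% of its exonic bases overlap *Dvl2*. *Acadl*, for long chains, was at 7.31 and 6.51 FPKM in WT and at 8.09 and 10.5 FPKM in KO (log2 0.41, adjusted p = 0.137). *Acadm* was thus lower, and *Acadl* and *Acadvl* were higher, in each KO library than in each WT library, none past the test. *Acad9*, which passed the test, and *Acad11*, which did not, were also lower in each KO library. An order of the changes by chain length was not tested. The ratio of *Acadm* to *Acadl* was 11.6 and 14.3 in WT and 8.80 and 6.98 in KO, and that of *Acad9* to *Acadvl* 3.16 and 3.29 in WT and 1.80 and 2.03 in KO.

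The other dehydrogenases differed by less than 1.5-fold between the genotype means. *Acads*, for short chains, ranged from 18.8 to 21.7 FPKM, and *Acadsb*, for short branched chains of isoleucine, from 9.46 to 10.4 FPKM. *Acad8*, of valine breakdown, ranged from 9.00 to 9.97 FPKM, *Acad10*, in a row merged with *Acad12*, from 3.80 to 4.79 FPKM, and *Acad11*, which acts on longer chains and has also been placed in peroxisomes, from 5.36 to 5.84 FPKM. In *Acads*, *Acadsb*, *Acad8* and *Acad10* the genotypes overlapped, while *Acad11* was lower in both KO libraries by a margin of under 0.1 FPKM. Summed over the 9 dehydrogenases, FPKM was 171 and 179 in WT and 153 and 156 in KO.

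The later steps of the cycle are carried out by *Echs1*, the hydratase of short chains, *Hadh*, the dehydrogenase of short hydroxyacyl chains, *Acaa2*, the thiolase, and the trifunctional protein, which holds the same activities for long chains. Its α subunit *Hadha* was at 33.9 and 32.6 FPKM in WT and at 34.0 and 32.6 FPKM in KO (log2 0.00, SE 0.08, adjusted p = 0.989). Its β subunit *Hadhb* was at 35.9 and 36.5 FPKM in WT and at 30.6 and 29.3 FPKM in KO (log2 -0.27, SE 0.08, adjusted p = 0.0716). The transcripts of the subunits were therefore near equal in WT, with a ratio of *Hadhb* to *Hadha* of 1.06 and 1.12. In both KO libraries *Hadhb* was below *Hadha*, at 0.898 and 0.899. Protein was not measured. The difference between the subunits' changes was not tested.

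*Hadha* and *Hadhb* are transcribed away from each other from neighbouring starts on chromosome 5, 272 bases apart between 30154980 and 30155253, and their promoter windows share 228 bases. The windows are chr5:30154931-30155230 on the minus strand for *Hadha* and chr5:30155003-30155302 on the plus strand for *Hadhb*, with GC boxes in capitals, and are shown because the genes of both subunits start in this shared region.
Hadha: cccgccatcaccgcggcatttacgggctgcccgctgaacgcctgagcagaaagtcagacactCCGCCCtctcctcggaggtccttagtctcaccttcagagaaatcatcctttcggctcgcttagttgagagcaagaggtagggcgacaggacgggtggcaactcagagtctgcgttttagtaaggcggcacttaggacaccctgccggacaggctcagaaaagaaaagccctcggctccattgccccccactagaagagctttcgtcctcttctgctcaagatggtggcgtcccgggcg
Hadhb: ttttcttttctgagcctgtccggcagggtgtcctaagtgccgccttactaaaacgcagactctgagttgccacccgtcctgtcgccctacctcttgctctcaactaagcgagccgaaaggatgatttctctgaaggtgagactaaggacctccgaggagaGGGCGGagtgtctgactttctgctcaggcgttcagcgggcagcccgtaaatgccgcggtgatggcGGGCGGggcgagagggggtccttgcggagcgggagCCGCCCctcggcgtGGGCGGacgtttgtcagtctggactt

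The *Hadha* window held 1 GC box and the *Hadhb* window 4, of which 1 is the same site read on the other strand. *Hadha* has the same coordinates as *Gareml* in the files, so its value and the ratio of the subunits are uncertain. *Echs1* was at 53.1 and 55.9 FPKM in WT and at 59.7 and 62.1 FPKM in KO (log2 0.16, adjusted p = 0.213), and *Hadh* at 41.8 and 40.2 FPKM in WT and 45.6 and 47.0 FPKM in KO (log2 0.17, adjusted p = 0.181). Both were higher in each KO library than in each WT library, with intervals within 1.5-fold. *Acaa2* ranged from 18.6 to 24.5 FPKM and overlapped between genotypes.

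Unsaturated chains need the isomerases *Eci1* and *Eci2* and the reductase *Decr1*. *Eci1* ranged from 29.0 to 32.7 FPKM, *Eci2* from 15.4 to 16.9 FPKM and *Decr1* from 4.77 to 5.48 FPKM over the 4 libraries, and their log2 fold changes were 0.08, 0.10 and 0.01. Only *Eci2* was separated between genotypes, with 15.4 and 15.8 FPKM in WT and 16.9 and 16.4 FPKM in KO.

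Electrons from the dehydrogenases pass to *Etfa* and *Etfb*, the subunits of the electron transfer flavoprotein, and on to *Etfdh*, which hands them to ubiquinone. *Etfb*, in a row merged with *Cldnd2*, was at 106 and 100 FPKM in WT and at 122 and 119 FPKM in KO (log2 0.23, adjusted p = 0.101). It was the most abundant member in every library. Its value is uncertain, since 58.2% of its exonic bases overlap *Gm45233* and *Mir7051*. *Etfa* was at 64.5 and 71.1 FPKM in WT and at 58.1 and 75.3 FPKM in KO, so its KO replicates enclosed those of WT. *Etfdh* ranged from 7.35 to 9.48 FPKM. The ratio of *Etfa* to *Etfdh* within a library overlapped between genotypes.

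Over the 24 mitochondrial members 0 rose and 1 fell (4.17%) by this limma test, beside 6.85% and 5.60% of all features. At an unadjusted p under 0.05 in either direction there were 7 of the 24, beside 29.6% of all features, and the median log2 fold change was 0.06. Summed FPKM was 618 and 631 in WT and 621 and 639 in KO. For 23 of the 24 the 95% interval lay within 2-fold.

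**Figure D5:**
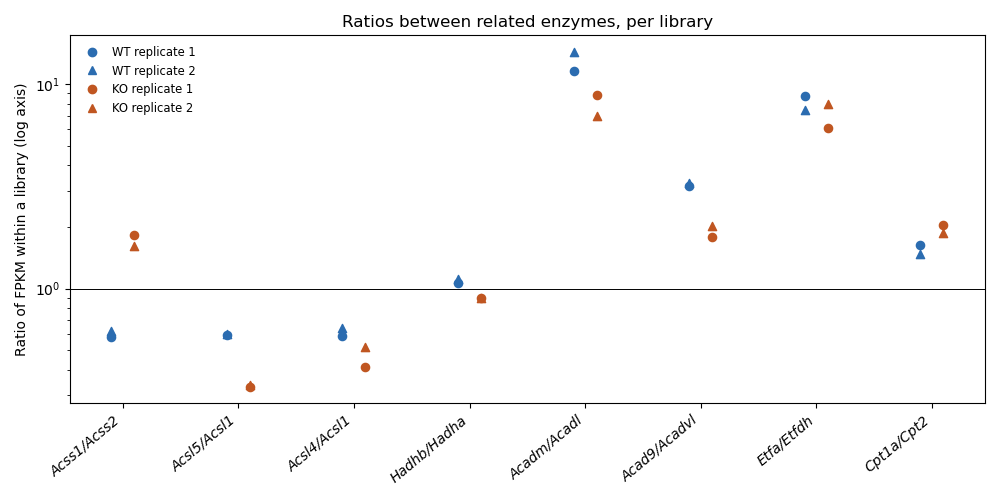
Ratio of FPKM between related enzymes within each library (log axis, the line marks 1), with WT in blue, KO in orange, replicate 1 as circles and replicate 2 as triangles. *Acss1* to *Acss2* crosses from below 1 in WT to above 1 in KO and *Hadhb* to *Hadha* from above to below 1, whereas *Etfa* to *Etfdh* overlaps.

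Beside the members, 86 other genes of the pathway were listed, of which 83 were in the files and 74 were tested. Of these, 7 rose (9.46%) and 2 fell (2.70%), beside 6.85% and 5.60% of all features, with a median log2 fold change of 0.02. With so few genes in each list, the counts by list are a description only. Of the 7 that rose, genes of uptake and carnitine held 3 among 11 tested. Peroxisomal genes held 3 among 16, and mitochondrial acyl-CoA genes 1 among 19. The 2 that fell were 1 of the 16 peroxisomal genes and 1 of the 10 regulators. The 14 peroxins and 4 further synthetases held 0 in either direction by limma. At an unadjusted p under 0.05 by limma they held 3 and 2 genes, beside 29.6% of all features. *Fabp3*, a fatty acid binding protein of muscle, was at 70.8 and 77.0 FPKM in WT and at 246 and 269 FPKM in KO (log2 1.80, SE 0.09, adjusted p = 0.0012), in a feature with the same coordinates as *Zcchc17*. *Cat*, the catalase that removes hydrogen peroxide in peroxisomes, was at 25.4 and 25.0 FPKM in WT and at 43.0 and 42.5 FPKM in KO (log2 0.76, adjusted p = 0.0052). The row of *Cpt1b*, the muscle form of *Cpt1a*, merged with *Chkb* and hence uncertain, was at 14.0 and 11.8 FPKM in WT and at 22.8 and 21.6 FPKM in KO (log2 0.78, adjusted p = 0.0119).

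These 3 features were higher in both KO libraries with no overlap. *Pecr*, a peroxisomal reductase of chain elongation, was at 38.4 and 36.4 FPKM in WT and at 24.9 and 23.2 FPKM in KO (log2 -0.64, adjusted p = 0.0099). *Acaca*, which makes malonyl-CoA, was at 15.7 and 15.4 FPKM in WT and at 11.8 and 11.6 FPKM in KO (log2 -0.41, adjusted p = 0.0327). The fatty acid sensing receptor genes *Ppara* and *Pparg* were at or below 0.086 FPKM in every library, under the level at which features were tested.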

How the data were processed

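RNA-seq of 2 WT and 2 *Bmal1* KO ESC libraries was analysed. Per the labels and the study's methods, RNA was extracted with TRIzol and depleted of ribosomal RNA. The submitters' processing notes name TopHat2 2.1.1, Bowtie2 2.3.0 and Cufflinks 2.2.1 and the build GRCm38, and the authors deposited FPKM per feature. FPKM carry no read numbers, and sequencing depth is therefore unknown. Features without a gene symbol held 26.8 and 37.3% of the summed FPKM in WT and 19.0 and 18.1% in KO, which can affect the scale of all other features. Summed FPKM was not fixed, at 991944 and 1183006 in WT and 872196 and 840017 in KO. The shares alone therefore do not give the size or direction of such an effect.

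FPKM were compared as log2(FPKM + 0.1) for features with a mean of at least 0.5, in limma 3.58.1 under R 4.3.3 with a variance trend, genotype as the only term, and Benjamini-Hochberg adjustment over all 12990 features. Fold changes on this scale understate those of low genes. A gene with several features was counted by the one with the highest mean. The fit was run on simulated data with independent noise in each library. That run does not bear on whether the replicates were separate cultures. The study's thresholds were kept, an adjusted p under 0.05 with changes over 2-fold counted apart. The members, the lists of other genes and the markers were chosen with earlier results of these data known. All 39 members are named, with full statistics for those past the test, those changed over 1.5-fold and the enzymes that define each step, and of the other genes past the test those with the 3 largest changes in each direction are named. In all, 14 alternative settings were tried. Gene coordinates and overlaps are from the GENCODE annotation of GRCm38, and promoter windows from RefSeq. Tables were handled in Python 3.11.15 with pandas 2.3.3 and numpy 2.4.6.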

Additional observations from a re-analysis of the deposited data

How the results depend on the processing

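*Acss1*, *Acox3*, *Acsl5* and *Acad9* passed the test in all 15 settings, with adjusted p by limma up to 0.0257, 0.0405, 0.0254 and 0.0428. Among the other 35 members, 23 passed in none and 12 in some. Of all features, 1618 passed, 951 with no filter on low values and 1364 to 2032 with 1 library left out. The members' medians were 0.14 (mitochondrial), 0.13 (peroxisomal) and -0.23 (synthetases) once libraries were rescaled to the features with a symbol, which moved the median of all features by 0.07. Leaving out 1 library gave 0.0140 to 0.0886 for the mitochondrial median, lowest without KO replicate 2, 0.0396 to 0.12 for the peroxisomal median, highest without KO replicate 2, and -0.36 to -0.24 for the synthetases. The cause was not tested.

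The replicate numbers were also fitted as a block. Replicate differences of the genotypes correlated with Pearson r of 0.07 and Spearman rho of 0.39 across 12990 features, there are only 2 pairs, and no source says that a number marks a shared batch, so the samples share only a number. With the replicate block 4052 features passed, and 7 members were higher and 8 lower, beside 13.9 and 17.3% of all features.

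Estimates of 11 members near 0 changed sign. With the rescaling the log2 fold changes were 0.0204 for *Acads*, 0.0179 for *Acad8*, 0.0070 for *Acad11* and 0.04 for *Etfa*, and with quantile normalization -0.0195 for *Decr1*. Leaving out 1 library gave ranges of -0.0051 to 0.17 for *Slc25a20*, -0.15 to 0.0498 for *Acads*, -0.12 to 0.0080 for *Acad8*, -0.0191 to 0.11 for *Acadsb*, -0.0286 to 0.0331 for *Hadha*, -0.0820 to 0.11 for *Decr1*, -0.22 to 0.15 for *Etfa*, -0.0059 to 0.36 for *Etfdh*, -0.0201 to 0.13 for *Acaa1a* and -0.15 to 0.21 for *Crot*. A lone library of a genotype was then taken to vary like the other genotype's. *Crat* passed without WT replicate 1 (adjusted p = 0.0246 by limma, up to 0.203 over its alternatives), as did *Acsl3* (0.0182), while *Decr2* passed without WT replicate 2 (0.0409) or KO replicate 1 (0.0128), *Acadl* without KO replicate 1 (0.0369) and *Acsl4* without KO replicate 2 (0.0220).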
